A study of Rattus norvegicus with 9 samples.

Results

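Rats with SCI + SCS were compared with rats with SCI alone to ask what high-frequency spinal cord stimulation (HF-SCS) changed in the RNA of an injured rat spinal cord. Its members were all genes of the count table that passed edgeR's default filter on low counts in the 3 SCI + SCS and 3 SCI libraries, 17663 of 30507 rows. Of these, 17513 lay outside lists of skeletal muscle and adipocyte genes. Genes are described here by cell type and pathway, in lists from which muscle genes were left out but adipocyte genes were not. All rats were female wild-type Sprague-Dawley rats of 8 weeks. The SCI rats had a contusion at T10. The SCI + SCS rats had the same injury and, from 1 dpi, daily sessions of 2 h of stimulation through epidural electrodes over T11-T12, set to 10 kHz, 0.12 mA and a pulse width of 30 µs. The SCI rats carried a plug but no electrode, so the implant and the current cannot be told apart in this comparison. Whole tissue around the injury (T9-T11) was taken at 35 dpi, with 1 library per rat. The labels call the 3 Sham rats untreated, and the methods of the study give them a laminectomy. Sham libraries are used only as reference levels.

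A contusion kills neurons and oligodendrocytes at its centre and opens the tissue to blood. Microglia and infiltrating macrophages then clear myelin, while lymphocytes, fibroblasts and reactive astrocytes build a lasting scar with an inflamed core. Cells call each other in with chemokines, small secreted proteins read by receptors on leukocytes, and antigen-presenting cells show peptides to T cells on major histocompatibility complex (MHC) proteins. Surviving neurons are known by their synaptic, ion channel and neuropeptide genes. Electrical stimulation of the cord is used in patients mainly against pain, where the dorsal horn, the first relay of touch and pain, is its usual target. In whole tissue, fewer cells of a type and less RNA per cell cannot be told apart.

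Library totals over genes ran from 62844376 to 88358570 counts. Neuronal (Snap25, Rbfox3), astrocytic (Gfap, Aqp4) and myelin (Mbp, Mog) markers were present in every library, as the spinal cord label requires, and the B cell marker Ms4a1 stayed under 1 CPM (the share of a library's counts taken by a gene, scaled to 1000000 and by TMM over all 9 libraries) throughout. The muscle list took 0.768% and 0.448% of the counts in SCI replicates 1 and 3, and 0.140% in SCI replicate 2. It took 0.132% to 0.143% in the SCI + SCS libraries and 0.0935% to 0.122% in the Sham libraries. The adipocyte list took 0.0282% to 0.0357% in the SCI libraries and 0.0185% to 0.0220% in the SCI + SCS libraries. The muscle and adipocyte levels thus moved with the groups, and values without SCI replicates 1 and 3 are given below for most lists whose median or count of called genes they moved. That setting leaves 1 SCI rat, SCI replicate 2, so its medians and calls rest on no replication of SCI. SCI replicate 2 also had the highest adipocyte share of all libraries, 0.0357%.

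At the thresholds of the study (|log2FC|>1 and adjusted p under 0.05), the quasi-likelihood test of edgeR, adjusted by Benjamini-Hochberg, called 1 gene higher (0.00566% of the genes tested) and 0 lower (0%). That gene has no symbol and stands on more than 1 row of the table. At an unadjusted p under 0.05, edgeR gave 4274 genes, 2348 higher and 1926 lower, and 1200 genes had an adjusted p under 0.1 (740 higher, 4.19%, and 460 lower, 2.6%). DESeq2, the tool of the study, called 771 genes with the same thresholds. Among the genes that edgeR tested, these were 417 higher (2.36%) and 338 lower (1.91%). A gene is called below only where DESeq2 gave |log2FC|>1 and an adjusted p under 0.05, and every fold change printed is that of edgeR. On simulated counts DESeq2 called more unchanged genes than edgeR, and the limit set there on such calls was not applied to it. Some of these calls may therefore be false, and their share is not known. The TMM-scaled levels of both groups did not overlap for 2768 higher genes (15.7%) and 2448 lower genes (13.9%), and the median log2FC of all genes tested was -0.0055.

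Of the 353 genes that DESeq2 called lower, 77 were on the muscle list and 3 on the adipocyte list. Without SCI replicates 1 and 3, DESeq2 called 241 genes higher and 205 lower, and with the muscle level as a covariate 187 and 200. Leaving out SCI + SCS replicate 3 gave 156 and 223. In edgeR, the 1200 genes with an adjusted p under 0.1 became 0 with the muscle covariate, 1 with the Sham libraries in the fit, 1 without SCI replicate 3 or SCI + SCS replicate 2, and 5 without SCI + SCS replicate 3. The lists below are therefore described by how their members lay as a group, and counts of called genes are those of DESeq2. Each such count is to be read against the shares of all genes tested, 2.36% called higher and 1.91% called lower.

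**Figure D1:**
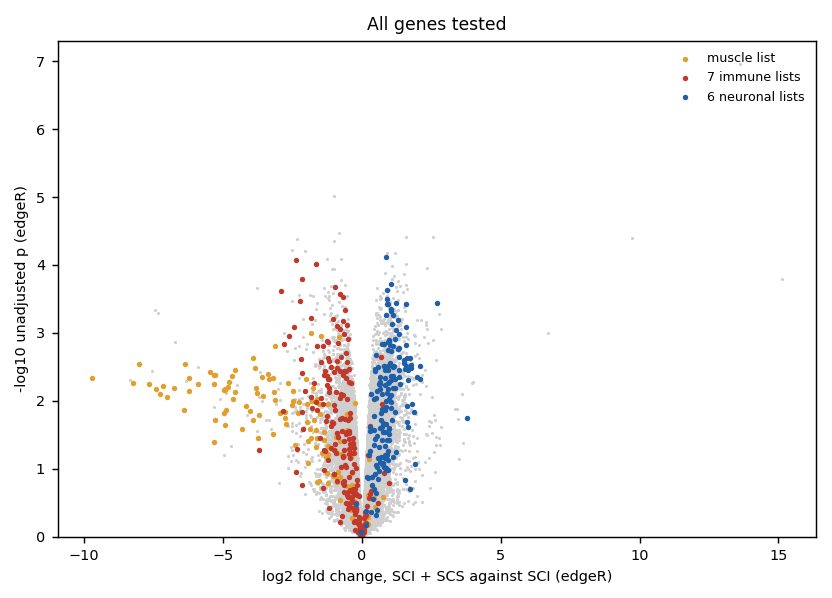
Log2 fold change, SCI + SCS over SCI (x), and -log10 of the unadjusted p (y), both from edgeR, for the 17663 genes tested (grey), with genes of 6 neuronal lists in blue, 7 immune lists in red and the muscle list in orange. Neuronal genes lie mostly to the right immune genes mostly to the left, and muscle genes reach -9.70.

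The 46 lists of cell types and pathways had medians between -0.99 and 1.16, and 30 of them lay below 0. The 7 lists of neuronal genes stood at the upper end, followed by astrocytes, oligodendrocytes and their precursors, axon growth genes and cholesterol synthesis. T and NK lymphocytes, genes of the meninges, chemokine ligands and fibroblasts stood at the lower end. Endothelium, Schwann cells, homeostatic microglia, the p38 MAP kinase pathway and oxidative phosphorylation had medians between -0.04 and 0.03.

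**Figure D2:**
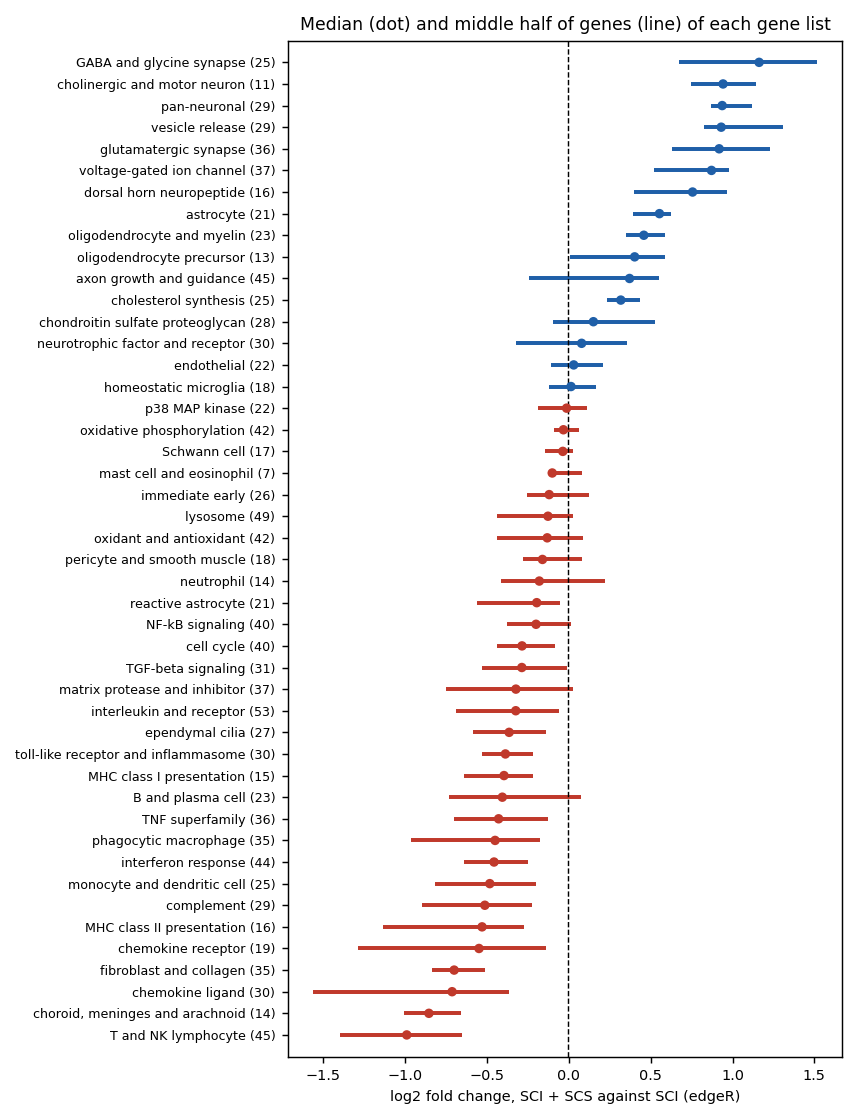
Median log2 fold change (dot) and middle 50% of the tested genes (line) of each of 46 lists, with the number of genes tested in brackets. The dashed line marks the median of all genes tested, -0.0055. Neuronal lists have medians from 0.76 to 1.16 and the T and NK lymphocyte list the lowest, -0.99.

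Neuronal genes were higher in the SCI + SCS group by a similar amount across functions. All 29 pan-neuronal genes tested were higher, with a median log2FC of 0.94 and a middle range of 0.87 to 1.12, and 10 were called, against 2.36% of all genes. Rbfox3, the gene of the neuronal nuclear antigen NeuN, was at 28.8, 23.4 and 15.5 CPM in the SCI libraries and 36.0, 46.1 and 57.1 CPM in the SCI + SCS libraries. The groups did not overlap, as for 20 of the 29 pan-neuronal genes and 15.7% of all genes tested in that direction. The log2FC was 1.05 (SE 0.25, adjusted p = 0.0918 with Benjamini-Hochberg adjustment in edgeR's quasi-likelihood test). Map2, a dendritic microtubule protein, was at 6.67, 9.42 and 4.78 CPM in the SCI libraries and 11.4, 27.8 and 26.1 CPM in the SCI + SCS libraries. Here SCI + SCS replicate 1 lay close to the SCI libraries. Myt1l, a transcription factor that keeps neuronal identity, had a log2FC of 2.70 (SE 0.42), with 0.368, 0.270 and 0.318 CPM in the SCI libraries and 1.18, 1.90 and 3.13 CPM in the SCI + SCS libraries. Snap25, a SNARE protein of vesicle fusion, overlapped between the groups (183 to 600 CPM against 575 to 909 CPM, log2FC 0.93).

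Inhibitory synapses had the highest median of the 46 lists in the main comparison, but not without SCI replicates 1 and 3, where it was 0.94 against 1.0 for cholinergic and pan-neuronal genes and 0.96 for vesicle release. All 25 genes of GABA and glycine transmission were higher, with a median log2FC of 1.16, and 14 were called, against 2.36% of all genes. The vesicular transporter Slc32a1, which loads GABA and glycine into vesicles, was at 20.3, 17.6 and 11.1 CPM in the SCI libraries and 27.0, 36.7 and 45.1 CPM in the SCI + SCS libraries. Gad1, which makes GABA, had a log2FC of 0.92 (SE 0.21). Gabrg1, a subunit of the GABA-A receptor, had a log2FC of 1.33 (SE 0.25). Gabbr2, a subunit of the GABA-B receptor, had a log2FC of 1.20 (SE 0.23). None of these groups overlapped.

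Excitatory synapses lay close behind, with 35 of 36 genes higher, a median log2FC of 0.92 and 12 called, against 2.36% of all genes. Slc17a6, the vesicular glutamate transporter of most excitatory spinal neurons, was at 35.2, 27.4 and 20.04 CPM in the SCI libraries and 45.3, 54.3 and 67.1 CPM in the SCI + SCS libraries. Grin1, the obligatory NMDA receptor subunit, had a log2FC of 1.23 (SE 0.19) and Grin2d one of 1.24 (SE 0.23). Nrgn, a calmodulin-binding postsynaptic protein, was at 6.48, 7.66 and 5.75 CPM in the SCI libraries and 11.8, 13 and 13.3 CPM in the SCI + SCS libraries. All 29 genes of vesicle release were higher, with a median of 0.93 and 11 called, among them the synapsin Syn2 (log2FC 1.31, SE 0.23). Of 37 voltage-gated ion channel genes, 36 were higher and 7 were called, with a median of 0.87. The potassium channel gene Kcnd3, which carries a fast A-type current, was among the 15 higher genes with the smallest p, at 15.4, 15.6 and 13.5 CPM against 25.3, 26.6 and 30 CPM.

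The medians of the neuronal lists stayed positive without the muscle-rich SCI replicates 1 and 3, a setting that leaves 1 SCI rat. They were then 1.0 for pan-neuronal genes, 0.94 for GABA and glycine and 0.81 for glutamate. With each library left out in turn, the medians stayed between 0.72 and 1.22, 0.94 and 1.34, and 0.77 and 1.0. In the SCI + SCS libraries, the mean level of the pan-neuronal genes stood at -1.48, -1.14 and -0.82 (log2) relative to the mean of the Sham libraries, and in the SCI libraries at -1.83, -2.16 and -2.76.

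Peptide and granin genes, which neurons store in dense-core vesicles, were 5 of the 15 higher genes with the smallest p. Calca, the gene of calcitonin and CGRP, made by motor neurons and primary afferents, was at 13.6, 11.1 and 8.38 CPM in the SCI libraries and 33.6, 32.9 and 31.8 CPM in the SCI + SCS libraries. The log2FC was 1.58 (SE 0.17, adjusted p = 0.0719 with Benjamini-Hochberg adjustment in edgeR's quasi-likelihood test, the smallest value reached by any gene with a symbol, shared by many). Vgf, a granin-like precursor of several peptides, was at 36.0, 31.4 and 25.4 CPM in the SCI libraries and 66.2, 78.1 and 67.7 CPM in the SCI + SCS libraries. Scg2 and Chgb, both granins, had log2FCs of 1.10 (SE 0.15) and 1.31 (SE 0.18). Pdyn, the dynorphin precursor, was at 7.60, 8.86 and 8.11 CPM in the SCI libraries and 14.0, 19.0 and 18.3 CPM in the SCI + SCS libraries, and Penk, the enkephalin precursor, had a log2FC of 1.06 (SE 0.17). Both encode opioid peptides of the dorsal horn. In the whole dorsal horn neuropeptide list, 15 of 16 genes were higher, with a median log2FC of 0.76, and 4 were called, or 1 without SCI replicates 1 and 3. The substance P precursor Tac1 had a log2FC of 1.09 (SE 0.19), neurotensin (Nts) one of 0.89 (SE 0.14) and somatostatin (Sst) one of 0.74 (SE 0.15). Drd2, a dopamine receptor, was also among the 15, at 1.61, 2.33 and 1.91 CPM against 5.22, 6.28 and 5.91 CPM. Calca, Vgf, Scg2, Chgb, Pdyn and Drd2 were chosen among genes whose groups did not overlap. For Penk, Tac1, Nts and Sst the groups did not overlap either, as for 15.7% of all genes tested in that direction.

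The promoters of the 15 higher genes with the smallest p were read for the cAMP response element (CRE), the letters TGACGTCA, which bind CREB in response to cAMP and calcium. RefSeq promoters (GRCr8, 250 bases before the annotated start, either strand) were at hand for 13 of the 15. The CRE stood in 3 of them, Vgf, Scg2 and Bend6, and in 466 of 27457 promoters in all (1.7%). Of the genes tested, 12619 had a promoter in the table, and 2.62% of these held it. The CRE stood in 0 of 13 promoters of the 15 lower genes with the smallest p. It stood in 0 of 11 promoters of the dorsal horn neuropeptide list. The stretches of Vgf, Scg2 and Bend6 are shown because these 3 genes share the element and were picked by smallest p. They run 5′ to 3′ on the gene's strand, with the CRE in capitals, from chr12:25277043-25277170 (minus strand) for Vgf, chr9:88256922-88257049 (minus) for Scg2 and chr9:43631230-43631357 (minus) for Bend6.
Vgf: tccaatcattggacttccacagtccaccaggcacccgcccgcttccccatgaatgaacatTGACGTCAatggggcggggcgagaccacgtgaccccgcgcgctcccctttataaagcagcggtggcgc
Scg2: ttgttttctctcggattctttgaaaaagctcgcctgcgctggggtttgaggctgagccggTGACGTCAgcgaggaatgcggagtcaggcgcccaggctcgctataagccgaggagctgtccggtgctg
Bend6: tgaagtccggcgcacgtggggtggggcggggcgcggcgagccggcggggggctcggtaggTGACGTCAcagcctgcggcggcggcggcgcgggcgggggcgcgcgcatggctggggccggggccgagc
The last base of the element lay 83 bases before the start in Vgf, 116 in Scg2 and 96 in Bend6. Bend6, a BEN domain protein of the nucleus, was at 38.4, 40.4 and 32.7 CPM in the SCI libraries and 65.5, 80.7 and 89.1 CPM in the SCI + SCS libraries. Immediate early genes, the rapid targets of neuronal activity, had a median log2FC of -0.12 (-0.01 without SCI replicates 1 and 3), with 10 of 26 higher and 0 called, although 4 of the 18 with a promoter in the table held the CRE. Fos was at 20.3, 17.6 and 36.5 CPM in the SCI libraries and 23.1, 33.5 and 17.5 CPM in the SCI + SCS libraries, which overlapped fully. The 3 genes of the list with the smallest p were lower and did not overlap between the groups, namely the stress-induced factor Atf3 (log2FC -0.63, SE 0.14), Klf6 (-0.39, SE 0.12) and Ier5 (-0.34, SE 0.09). In that direction the groups did not overlap for 5 of the 26 genes and 13.9% of all genes tested. The highest of the list was Arc, a synaptic gene (log2FC 0.72, SE 0.23).

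**Figure D3:**
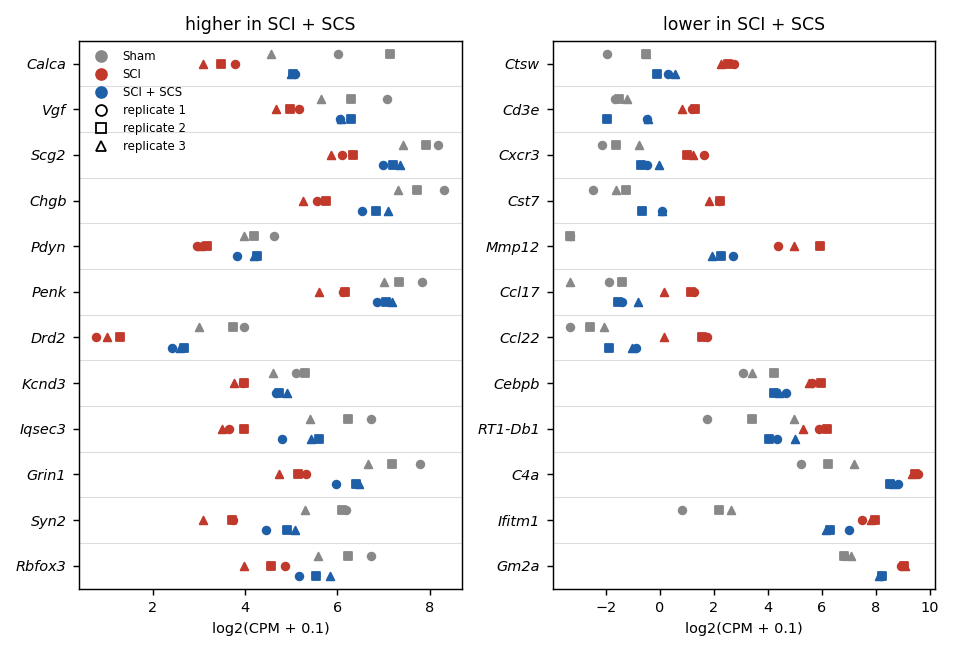
Level of 24 genes as log2(CPM + 0.1) in each library, for Sham (grey), SCI (red) and SCI + SCS (blue), with the replicate given by the symbol. The blue points of Calca lie between 31.8 and 33.6 CPM, right of the red points, and those of Ctsw between 0.823 and 1.39 CPM, left of the red points.

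Myelin and astrocyte genes were higher by less than neuronal genes. Of 23 oligodendrocyte and myelin genes, 22 were higher, with a median log2FC of 0.46 and 1 called. Mog, on the outer face of myelin, was at 151, 117 and 104 CPM in the SCI libraries and 176, 220 and 191 CPM in the SCI + SCS libraries (log2FC 0.66, SE 0.16). For Mbp the groups overlapped (log2FC 0.42, SE 0.26). The 13 genes of oligodendrocyte precursors had a median of 0.40, which was 0.17 without SCI replicates 1 and 3, and the 1 called gene was then lost, as was that of the myelin list. Gpr17, a receptor of precursors on the way to myelination, had a log2FC of 1.33 (SE 0.32), and the precursor marker Cspg4 one of -0.05 (SE 0.18). The 25 genes of cholesterol synthesis, on which myelin depends, had a median of 0.32 with 24 higher and 0 called. Cyp51, which acts in that pathway, was at 99.4, 102 and 99.1 CPM in the SCI libraries and 146, 135 and 152 CPM in the SCI + SCS libraries (log2FC 0.53, SE 0.08). Scd, a desaturase of fatty acids, had a log2FC of 0.85 (SE 0.11).

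Of 21 astrocyte genes, 19 were higher, with a median of 0.55 and 0 called. Aqp4, the water channel of astrocyte endfeet, was at 1198, 871 and 761 CPM in the SCI libraries and 1243, 1653 and 1441 CPM in the SCI + SCS libraries. Gfap, the astrocyte filament raised in gliosis, was at 7251, 5759 and 4611 CPM against 7154, 9224 and 9660 CPM, and the groups overlapped (log2FC 0.57, SE 0.21). Of the 21 genes of the reactive astrocyte list, 17 were lower, with a median of -0.20 and 0 called. Gfap is on this list too and had its highest log2FC. Timp1, a protease inhibitor of scar tissue, had its lowest, at 218, 178 and 209 CPM against 141, 111 and 105 CPM. Among the 28 genes of chondroitin sulfate proteoglycans, which form the perineuronal net and the glial scar, the median was 0.15. The 3 called were the net proteins Hapln1, Hapln4 and Ncan, with log2FCs of 1.78 (SE 0.55), 1.20 (SE 0.36) and 1.30 (SE 0.30). Hapln1 was low, at 0.292, 0.0851 and 0.144 CPM in the SCI libraries and 0.463, 0.482 and 0.862 CPM in the SCI + SCS libraries. Its adjusted p in DESeq2 was 0.0487. Without SCI + SCS replicate 2, 0 genes of the list were called, and without SCI replicates 1 and 3 its median was 0.10.

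Genes of phagocytic macrophages were lower in the SCI + SCS group, and those of homeostatic microglia had a median near 0. Of 35 genes of phagocytic macrophages, 30 were lower, with a median log2FC of -0.45 and 7 called, against 1.91% of all genes. Mmp12, macrophage elastase, was at 20.6, 60.9 and 31.1 CPM in the SCI libraries and 6.51, 4.74 and 3.78 CPM in the SCI + SCS libraries, and had 0 counts in the Sham libraries. The log2FC was -2.89 (SE 0.42, adjusted p = 0.0719 with Benjamini-Hochberg adjustment in edgeR's quasi-likelihood test). Cst7, an inhibitor of lysosomal cathepsins found in microglia near damage, was at 4.54, 4.64 and 3.44 CPM against 0.954, 0.539 and 0.956 CPM. Cd68, a lysosomal marker of phagocytes, was at 257, 309 and 260 CPM against 177, 168 and 174 CPM, a log2FC of -0.66 (SE 0.10). Gpnmb, a glycoprotein of lipid-laden macrophages, had one of -0.88 (SE 0.20), and the protease Ctsk one of -1.24 (SE 0.24). The 18 homeostatic microglia genes had a median of 0.01 (10 higher, 8 lower). P2ry12, the purine receptor by which resting microglia sense damage, was at 41.9, 33.8 and 21.6 CPM against 30.2, 35.3 and 29.8 CPM, and Tmem119 had a log2FC of 0.08 (SE 0.22). The pan-myeloid gene Aif1, which encodes IBA1, had a log2FC of -0.46 (SE 0.16), near the median of the phagocytic list. Without SCI replicates 1 and 3, the median of the phagocytic list was -0.52 and 7 genes were called.

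Several of the 15 lower genes with the smallest p are known from myeloid cells. Cebpb, a transcription factor of inflammatory macrophages, was at 50.3, 62.6 and 46.7 CPM in the SCI libraries and 25.9, 18.9 and 21.5 CPM in the SCI + SCS libraries (log2FC -1.26, SE 0.16). Folr2, a folate receptor of resident macrophages, had a log2FC of -1.0 (SE 0.13), and Bcl2a1, a survival factor induced by NF-κB, one of -1.08 (SE 0.14). Gm2a, which helps lysosomes degrade gangliosides, was at 490, 528 and 548 CPM against 297, 300 and 281 CPM. Lyc2 had the smallest p of these 15 lower genes (log2FC -1.01, SE 0.09) and Lyz2, its near copy, a log2FC of -0.82 (SE 0.20). How reads were shared between these lysozyme genes is not given in the sources used here, so both are uncertain. Of the 49 lysosome genes as a whole, 34 were lower with a median of -0.13, or -0.27 without SCI replicates 1 and 3. In the neutrophil list the median was -0.18, and 2 of 14 genes were called lower. Cxcr1, a receptor for neutrophil chemokines, had a log2FC of -2.23 (SE 0.35) and Mmp8, neutrophil collagenase, one of -1.93 (SE 0.66), both without overlap. In that direction the groups did not overlap for 4 of the 14 genes and 13.9% of all genes tested. S100a8, an abundant neutrophil protein, overlapped between the groups (log2FC 0.25, SE 0.41).

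Lymphocyte genes had the lowest median of the 46 lists in the main comparison, but not without SCI replicates 1 and 3, where chemokine ligands were lower (-1.22 against -1.06). Of 45 genes of T and NK lymphocytes, 42 were lower, with a median log2FC of -0.99, and 12 were called, against 1.91% of all genes. Cd3e, part of the T cell receptor complex, was at 2.2, 2.38 and 1.69 CPM in the SCI libraries and 0.617, 0.156 and 0.642 CPM in the SCI + SCS libraries (log2FC -2.14, SE 0.51, adjusted p = 0.0904 with Benjamini-Hochberg adjustment in edgeR's quasi-likelihood test). Ctsw, a cathepsin of cytotoxic lymphocytes, was at 6.66, 5.66 and 4.74 CPM against 1.15, 0.823 and 1.39 CPM, and Cd7 at 4.59, 4.30 and 3.79 CPM against 1.32, 0.652 and 0.877 CPM. Ctsw and Cd7 were chosen among genes whose groups did not overlap. For Cd3e they did not overlap either, as for 13.9% of all genes tested in that direction. Cd8a, which in rats marks NK cells and some macrophages as well as T cells, overlapped (log2FC -0.71, SE 0.26), as did Foxp3, the factor of regulatory T cells (log2FC -1.33, SE 0.58). Levels of single lymphocyte genes were near 1 to 10 CPM or below, against 3 counts at 0.034 to 0.0477 CPM. The 23 B and plasma cell genes had a median of -0.41, 15 of them lower and 0 called, or 2 without SCI replicates 1 and 3. Without SCI replicates 1 and 3, the median of the T and NK list was -1.06, but only 4 of its genes were called. Leaving out each library in turn moved it between -1.21 and -0.80.

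Chemokine ligands were lower as a group, with 26 of 30 genes lower, a median log2FC of -0.71 and 11 called, against 1.91% of all genes. Ccl17 and Ccl22, which draw T cells through CCR4, had log2FCs of -2.45 (SE 0.44) and -2.81 (SE 0.55). Ccl22 was at 3.25, 2.85 and 1.03 CPM in the SCI libraries and 0.449, 0.170 and 0.392 CPM in the SCI + SCS libraries. Cxcl12, which holds CXCR4-bearing cells in tissue, was at 171, 229 and 210 CPM against 44.5, 102 and 108 CPM. Ccl2, which recruits monocytes, had a log2FC of -1.18 (SE 0.32), and Ccl5, a T cell chemokine, one of -1.47 (SE 0.41). Of 19 chemokine receptors, 15 were lower and 4 called, with a median of -0.55. Cxcr3, the receptor of activated T cells that the study followed, was among those called (log2FC -1.82, SE 0.31). Its 3 ligands were less clear, since the groups overlapped for Cxcl9 (log2FC -0.65, SE 0.48), Cxcl10 (-0.74, SE 0.38) and Cxcl11 (-0.36, SE 0.32). Cxcl10 was at 11.9, 25.7 and 8.87 CPM against 10.6, 7.47 and 9.51 CPM, and only SCI replicate 2 stood well above the SCI + SCS libraries. Leaving out SCI replicates 1 and 3, 11 chemokine ligands and 2 receptors were called, with medians of -1.22 and -0.79, and leaving out SCI replicate 2, 5 ligands and 3 receptors.

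Genes of antigen presentation lay lower as well. Of 16 MHC class II genes, 14 were lower, with a median of -0.53 and 5 called. Over all genes tested, 1.91% were called lower, and the counts of this paragraph are to be read against that share. RT1-Db1, a class II chain, was at 59.3, 73.2 and 39.3 CPM in the SCI libraries and 20.1, 16.6 and 32.3 CPM in the SCI + SCS libraries. Cd74, the invariant chain that guides class II proteins, had a log2FC of -1.25 (SE 0.30), and Ciita, the activator of class II genes, one of -1.23 (SE 0.40). Class II genes are near copies of each other in part, so their separate values are uncertain. Of 15 class I genes, 14 were lower, with a median of -0.40 and 1 called, which was Psmb8, a subunit of the immunoproteasome (log2FC -1.05, SE 0.22). Of 44 interferon response genes, 41 were lower, with a median of -0.46 and 2 called. Ifitm1, an antiviral membrane protein, was at 179, 249 and 229 CPM against 128, 79.4 and 71.2 CPM. Of 29 complement genes, 26 were lower, with a median of -0.51 and 5 called, among them C7 of the membrane attack complex (log2FC -1.04, SE 0.18). Another of the 5 was Cfd, which is on the adipocyte list too (63.0, 91.0 and 67.2 CPM against 30.1, 19.8 and 21.1 CPM). C4a, at the start of the cascade, was at 757, 696 and 649 CPM against 457, 374 and 398 CPM. When SCI replicates 1 and 3 were left out, 8 interferon response genes, 4 class II genes and 2 complement genes were called, with medians of -0.58, -0.64 and -0.62. Without SCI replicate 2 alone, 1 class II gene was called.

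The promoters of these genes were read for the interferon-stimulated response element (ISRE, the letters GAAANNGAAA) and for the κB element of NF-κB, on either strand. The ISRE stood in 22 of the 35 interferon response promoters at hand and in 5 of the 12 for class I, against 2.62% of all tested genes with a promoter. The κB element stood in 6 of 23 chemokine ligand promoters, against 5.44%. Among the 15 lower genes with the smallest p, 13 had a promoter at hand, and each element stood in 0 of these. Both elements stood in Tap1, the peptide pump of class I presentation, and in Cxcl10. They also stood together in B2m of the class I list and in Gbp5, Ifitm3, Irgm and Socs1 of the interferon response list. Tap1 and Cxcl10 are shown as examples with the elements in capitals, from chr20:4668544-4668724 (minus strand) and chr14:15988816-15989007 (plus strand) of GRCr8.
Tap1: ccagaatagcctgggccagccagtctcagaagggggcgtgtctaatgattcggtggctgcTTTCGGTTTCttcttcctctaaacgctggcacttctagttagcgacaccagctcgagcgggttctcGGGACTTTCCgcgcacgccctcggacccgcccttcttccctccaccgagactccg
Cxcl10: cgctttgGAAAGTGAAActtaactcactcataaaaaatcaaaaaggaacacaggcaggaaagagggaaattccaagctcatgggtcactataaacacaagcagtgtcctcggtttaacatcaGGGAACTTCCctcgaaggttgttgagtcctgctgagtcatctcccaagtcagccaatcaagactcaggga
In Tap1 the ISRE comes first, on the other strand, and the κB element second, and in Cxcl10 the ISRE also comes first. Tap1 was at 36.4, 43.1 and 41.9 CPM in the SCI libraries and 28.6, 25.8 and 30.7 CPM in the SCI + SCS libraries, a log2FC of -0.50 (SE 0.10), while the groups of Cxcl10 overlapped. Irf1, a transcription factor of the interferon response that also holds a κB element, had a log2FC of -0.48 (SE 0.09).

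Medians were nearer to 0 for signaling genes. Of 40 NF-κB signaling genes, 29 were lower, with a median of -0.20 (-0.31 without SCI replicates 1 and 3) and 1 called, which was Bcl2a1. Over all genes tested, 1.91% were called lower, and the counts of this paragraph are to be read against that share. Rela, the p65 subunit, had a log2FC of -0.16 (SE 0.09). The 22 p38 MAP kinase genes had a median of -0.01, 11 higher and 11 lower, and Mapk14, which encodes p38α, was at 73.4, 64.8 and 74.0 CPM against 69.8, 62.5 and 66.2 CPM. The medians were -0.39 for toll-like receptors and the inflammasome (0 of 30 called), -0.43 for the TNF superfamily (1 of 36 called) and -0.32 for interleukins and their receptors (3 of 53 called, 0 without SCI replicates 1 and 3). Il1b was at 1.13, 1.43 and 1.10 CPM against 0.758, 0.496 and 0.439 CPM, and Tnf at 0.736, 0.766 and 0.520 CPM against 0.295, 0.425 and 0.407 CPM. Both genes were low, and for neither did the groups overlap, as for 13.9% of all genes in that direction. Il1b was called and Tnf was not. RNA levels say nothing of the phosphorylation by which these kinases and factors act.

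Connective tissue genes were lower, but they also differed between Sham rats. Of 35 fibroblast and collagen genes, 33 were lower, with a median of -0.70 and 4 called, and Mfap4, a protein of elastic fibres, was at 132, 202 and 278 CPM in the SCI libraries and 106, 70.1 and 61.1 CPM in the SCI + SCS libraries. Col1a1, the main fibrillar collagen, overlapped (703, 1048 and 990 CPM against 726, 436 and 526 CPM). Of 14 genes of the meninges, 13 were lower, with a median of -0.86. Ptgds, an enzyme abundant in meninges, ranged from 10392 to 32010 CPM in the SCI libraries and from 5776 to 12401 CPM in the SCI + SCS libraries. Relative to the Sham mean, the 3 Sham libraries themselves lay from -1.62 to 1.28 (log2) on the meninges list and from -1.20 to 0.89 on the fibroblast list. The part of unequal amounts of meninges in these differences was not tested. Of 14 adipocyte genes, 12 were lower, with a median of -0.73 and 3 called. Fabp4, named after its values were seen, had the lowest log2FC of that list (23.7, 23.1 and 33.8 CPM against 12.2, 6.57 and 6.47 CPM). The adipocyte marker Plin1, under 1 CPM in every library, overlapped between the groups (log2FC 0.34, SE 0.58). Endothelial genes were not shifted in either direction, with a median of 0.03 over 22 genes, and Cldn5, a tight junction protein of the blood-spinal cord barrier, had a log2FC of 0.03 (SE 0.13). Schwann cell genes had a median of -0.04, or -0.30 without SCI replicates 1 and 3, and 0 of 17 were called.

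Of 27 genes of ependymal cilia, 23 were lower with a median of -0.37, which ranged from -0.61 to -0.03 with a library left out, and 0 were called. The median was -0.75 with 5 called without SCI replicates 1 and 3, and 7 were called without SCI replicate 1. Over all genes tested, 1.91% were called lower. Medians were -0.48 for monocytes and dendritic cells (2 of 25 called), -0.32 for matrix proteases and their inhibitors (3 of 37), -0.29 for TGF-beta signaling (1 of 31), -0.16 for pericytes (2 of 18), -0.13 for oxidant genes (0 of 42) and -0.10 for mast cells and eosinophils (0 of 7). After leaving out SCI replicates 1 and 3 these became -0.56 (1 called), -0.52 (6), -0.28 (1), -0.42 (1), -0.20 (0) and 0.13 (0). The cholinergic and motor neuron list, to which Calca belongs, had a median of 0.94 with 4 of 11 called. Without SCI replicates 1 and 3, 5 were called, and 1 without SCI replicate 3, SCI + SCS replicate 2 or SCI + SCS replicate 3. Chat, the enzyme that makes acetylcholine, overlapped between the groups (7.07, 3.19 and 1.29 CPM against 5.56, 7.10 and 8.57 CPM). Cell cycle genes were lower in 35 of 40 cases with a median of -0.29, and 0 were called. The 42 genes of oxidative phosphorylation lay between -0.77 and 0.20 with a median of -0.03, which was 0.18 without SCI replicates 1 and 3. The 30 neurotrophic factors and receptors had a median of 0.08, with 1 called higher and 1 lower, against 2.36% and 1.91% of all genes. The receptor Ret, which binds GDNF family signals, had a log2FC of 0.83 (SE 0.19), and Gfra3, another receptor of that family, one of -1.24 (SE 0.29). Among axon growth genes, 29 of 45 were higher, with a median of 0.37, or 0.22 without SCI replicates 1 and 3. Dcx, of migrating and growing neurons, was at 3.55, 3.26 and 2.34 CPM against 6.16, 7.73 and 7.57 CPM, while Atf3, also on this list, was at 43.7, 43.7 and 55.5 CPM against 35.3, 29.7 and 26.9 CPM.

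Seen by library, the 3 SCI + SCS libraries were not alike. On the first principal component of the 17513 non-muscle genes over all 9 libraries (56.0% of the variance), the SCI libraries lay at 70.9, 74.5 and 88.1, the Sham libraries at -133, -95.6 and -59.4, and the SCI + SCS libraries at 40.4, 8.67 and 4.88. SCI + SCS replicate 1 was thus the nearest to the SCI libraries. Its pan-neuronal level was -1.48 (log2) relative to the Sham mean, against -1.83 in SCI replicate 1, the nearest SCI library. Its T and NK lymphocyte level was 1.68 above the Sham mean, against 2.02 in SCI replicate 3. For both lists the groups did not overlap. They did overlap for homeostatic microglia (0.57 to 1.18 in the SCI libraries, 0.81 to 1.05 in the SCI + SCS libraries) and for endothelium. SCI replicate 2, whose muscle share was within the SCI + SCS range, had a pan-neuronal level of -2.16 and a T and NK level of 2.54, on the side of the other SCI libraries.

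**Figure D4:**
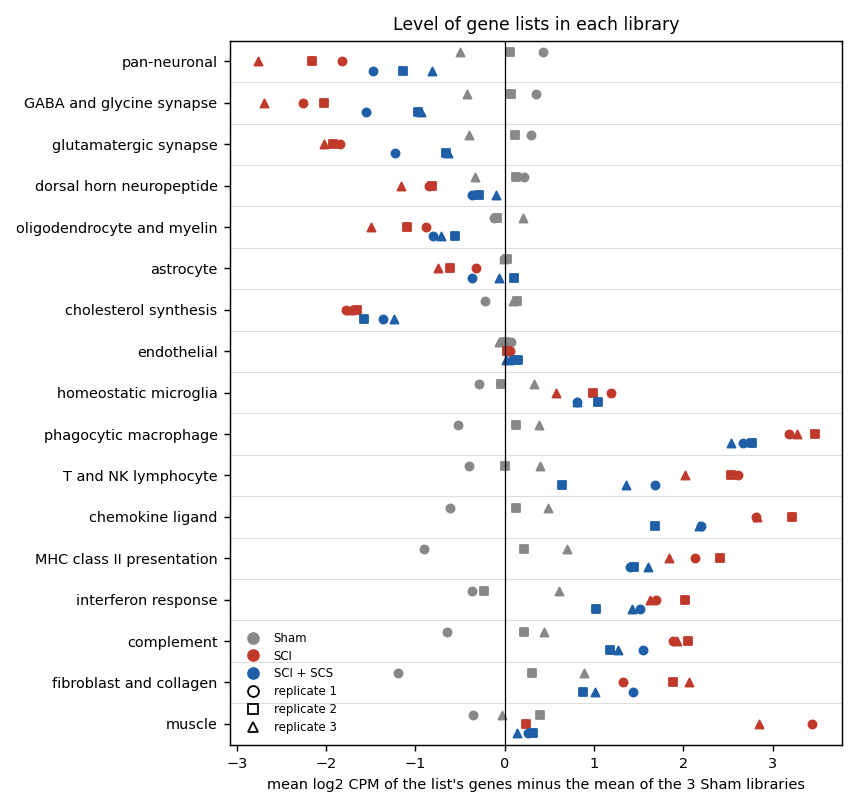
Mean log2 CPM of the genes of 17 lists in each library, minus the mean of the 3 Sham libraries, with groups by colour and replicates by symbol. SCI + SCS libraries lie between Sham and SCI for the pan-neuronal list (-1.48 to -0.82 against -2.76 to -1.83 in SCI), and in the muscle list SCI replicates 1 and 3 stand apart at 3.44 and 2.85.

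**Figure D5:**
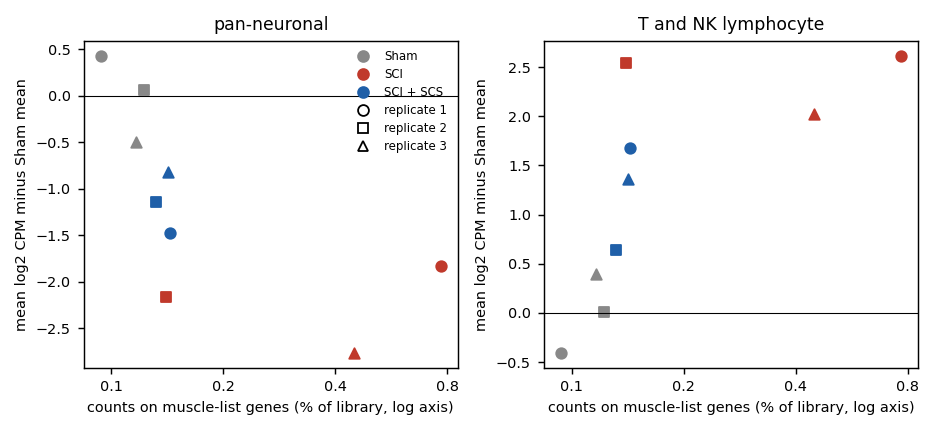
Share of counts on the muscle list (x, % of the library, log axis) and level of 2 lists relative to the Sham mean (y, log2) in each library. SCI replicate 2 has the muscle share of the SCI + SCS libraries (0.140%) and a pan-neuronal level of -2.16 and a T and NK level of 2.54.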

How the data were processed

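RNA from the T9-T11 cord of 9 female rats (3 Sham, 3 SCI, 3 SCI + SCS) was sequenced by the authors after oligo(dT) selection, 1 library per rat. The notes of the submitters name fastp 0.23.2, HISAT2 2.2.1 and the build mRatBN7.2. The counting program, annotation and strand setting are not given in the sources used here. The deposited table holds raw read counts per gene and, from the authors, FPKM per gene. Groups were taken from the sample labels. All samples share 1 batch in the labels, and same-numbered rats of different groups are different animals (correlation of their deviations -0.054, -0.055 and -0.078), so no block entered the main fit.

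From the counts, edgeR 4.0.16 (R 4.3.3) was run on the 3 SCI and 3 SCI + SCS libraries with its default filter, TMM scaling, the quasi-likelihood test and Benjamini-Hochberg adjustment. The SE was taken as the size of the log2FC over the square root of F. DESeq2 1.42.0, the tool of the study, was run as an alternative, as were voom and limma 3.58.1, including on log2(FPKM + 1) and log2(FPKM + 0.1) with a minimum FPKM of 0.1. Levels are CPM with TMM factors over 9 libraries. Library totals were 62844376 to 88358570 counts, and 3 counts, the most that a count of 0 allows, were 0.034 to 0.0477 CPM. This floor covers counting error only. In the table, 494 identifiers stand on 1081 rows, which were kept apart. The scripts were tested on simulated counts, where DESeq2 called more unchanged genes than edgeR. The limit set there on calls of unchanged genes was applied to the other fits and not to DESeq2.

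The genes and lists were chosen with earlier results of these data known. The text names, from identifiers on 1 row, the 3 genes of smallest p in each list, the 15 higher and 15 lower genes of smallest p whose groups did not overlap, cell type markers and the genes the study followed. Gad1, Map2, Slc17a6, Slc32a1, Tac1, Sst, Cd74, Ciita, Ccl2, Ccl5, Cxcl12, Hapln1, Ctsk, Foxp3, Fabp4, Arc, Ptgds and Sct were named after their values were seen. Columns of the table outside the counts and FPKM were not used. Promoters came from RefSeq (GRCr8). Some genes that this rule names are not reported here.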

Additional observations from a re-analysis of the deposited data

How the results depend on the processing

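The count of genes that edgeR called depended on the setting. Against 1 gene at the thresholds of the study and 1200 with an adjusted p under 0.1, DESeq2 gave 771 and 3572, voom with quality weights 16 and 3209, and log2(FPKM + 1) and log2(FPKM + 0.1) 20 and 19 at the thresholds. A replicate block in edgeR left 0 and 0, and with the muscle level as covariate 0 and 0. A minimum of 10 counts in every library gave 0 at the thresholds, as did summing the rows of an identifier. With an adjusted p under 0.1, no filter gave 605 genes, log2(FPKM + 1) without a filter 28, and all 9 libraries 1. Without SCI replicates 1 and 3 the counts were 3 and 9. Leaving out each library in turn gave 0 to 123 and 1 to 2431. DESeq2 called 387 genes with the muscle covariate, 446 without SCI replicates 1 and 3, 659 with the block and 379 to 1155 with each library left out. Its share of higher calls, 54.2%, became 63.5% with all 9 libraries and 41.2% without SCI + SCS replicate 3. The causes were not tested. Same-numbered rats are different animals, so the block has no basis in the design.

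Of the 46 list medians, 38 kept their sign in every setting, among them all 32 with a median over 0.2 in size. Their size changed more: 69 values over all settings moved by more than the spread between replicates, in 14 lists on log2(FPKM + 1), 10 without SCI replicates 1 and 3 and 9 with the muscle covariate. On log2(FPKM + 1) the median of T and NK genes became -0.26, that of chemokine receptors -0.17, that of GABA and glycine 0.69 and that of ion channels 0.42. Genes near 0 changed sign in some settings. The log2FC of Fos was -0.0056 with DESeq2, -0.0073 with no filter, -0.0051 with DESeq2 size factors and -0.0062 with all 9 libraries, and -0.28 to 0.38 with a library left out. That of P2ry12 was 0.027 with the block, 0.065 with the muscle covariate, 0.10 with voom, 0.10 on log2(FPKM + 1) with and without the filter and 0.11 on log2(FPKM + 0.1), and -0.25 to 0.19 with a library left out. That of Mapk14 was 0.031 with the muscle covariate and 0.026 without SCI replicates 1 and 3, and that of Cspg4 0.0037 on log2(FPKM + 0.1). With a library left out, Cspg4 ranged from -0.17 to 0.16, Cldn5 from -0.080 to 0.13, S100a8 from -0.20 to 0.57 and Tmem119 from -0.073 to 0.26.

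With 3 rats a group, depth did not limit the abundant genes, but lymphocyte and cytokine genes rested on levels near 1 CPM. Nothing here separates the electrode from the current.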

Other observations

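Some of the genes with the smallest p stood on none of the lists. Sctr, the receptor of the gut and brain hormone secretin, was at 4.40, 3.89 and 4.22 CPM in the SCI libraries and 1.02, 0.610 and 0.517 CPM in the SCI + SCS libraries, a log2FC of -2.53 (SE 0.30). Sct, the gene of secretin itself, chosen after its values were seen, was lower too, at 0.787, 1.28 and 1.24 CPM against 0.547, 0.199 and 0.157 CPM. Sctr was chosen among genes whose groups did not overlap. For Sct they did not overlap either, as for 13.9% of all genes tested in that direction. Kng1, the precursor of bradykinin, was at 0.622, 1.70 and 1.97 CPM against 0.0982, 0.0851 and 0.125 CPM. Trpv2, a cation channel of macrophages and sensory neurons, was at 40.0, 48.4 and 42.7 CPM against 26.4, 24.7 and 25.8 CPM.

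Among the higher genes, Ephx2, an epoxide hydrolase of lipid mediators, was at 16.5, 13.8 and 16.1 CPM in the SCI libraries and 27.2, 28.0 and 31.2 CPM in the SCI + SCS libraries, while the Sham libraries held 20.1, 19.8 and 1.27 CPM. Iqsec3, a scaffold of inhibitory synapses, was at 12.5, 15.7 and 11.2 CPM against 27.8, 48.5 and 42.7 CPM. Eef1a1l1, a near copy of an elongation factor gene, was listed at 0 in each SCI library and at 1.46, 1.13 and 1.94 CPM in the SCI + SCS libraries, and its reads may be shared with the parent gene.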
